A study of Rattus norvegicus with 7 samples.

Results

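The D-type cyclins Ccnd1, Ccnd2 and Ccnd3, the Cip/Kip inhibitors Cdkn1a, Cdkn1b and Cdkn1c, and the proliferation genes Pcna, Mki67, Top2a and Cdk1 were followed in lenses of a cataract rat. The genes were chosen by name, as the regulators and common markers of cell division, and their transcript clusters were found through the gene symbols of the array. Of these 10 genes, 9 were measured among 18166 named genes, each by 1 transcript cluster. Ccnd3 had no cluster named with its symbol alone and was not analysed here.

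Total RNA of whole lenses of male Ihara Cataract Rats (ICR, strain ICR/Ihr), in which lens opacity is inherited and appears with age, was measured on 7 microarrays (GeneChip Rat Gene 2.0 ST), each for a different age. All the rats carried the ICR background, and no strain that stays free of cataract was analysed here. The labels gave no cataracts at 2 and 4 weeks of age, cortical opacity at 8 and 10 weeks, posterior subcapsular opacity at 12 weeks and nuclear opacity at 14 and 18 weeks. The labels describe the lenses as coming out of culture medium before they were ground. They do not say whether an array held 1 animal or a pool, so p-values measure only the spread between these arrays. Age and stage ran together in this design and cannot be told apart.

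The lens grows throughout life from a single layer of epithelial cells on its anterior face. A ring of these cells near the equator divides, and their daughters leave the cell cycle and elongate into fibre cells, which do not divide again. D-type cyclins bind Cdk4 and Cdk6, which phosphorylate the retinoblastoma protein and free E2F factors to switch on the genes of DNA replication, and the Cip/Kip proteins hold these kinases back. In mice, Cdkn1b and Cdkn1c together are needed for lens fibre cells to stop dividing.

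Values are log2 signals after Robust Multi-array Average (RMA) normalization. As in the methods of the study, genes with a signal under 5 on all arrays were treated as dim, and 5168 genes reached 5 on at least 1 array and were tested. Of the members, Ccnd2, Cdkn1b, Cdkn1c and Pcna reached 5 and were tested, whereas Ccnd1, Cdkn1a, Mki67, Top2a and Cdk1 stayed under 5 on every array. The medians of the named genes lay between 3.49 and 3.54 on the 7 arrays, and 4146 to 4595 genes reached 5 on an array. All 7 lens epithelium markers and all 11 measured lens fibre markers reached 5. None of the 10 immune cell, 4 endothelium, 4 photoreceptor and 1 blood cell markers that were measured reached 5. Precision is limited by how few arrays there are.

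Mki67, Top2a and Cdk1 belong to the genes that dividing cells switch on late in the cell cycle. In human and mouse promoters of this class, CCAAT boxes and a TTTGAA element, called the cell cycle homology region, are typical. The promoters of these 3 genes are shown because they hold both elements although only 1 of the genes, Mki67, showed a large difference between ages. The windows were taken from RefSeq (build GRCr8) and run from 250 bases before to 50 bases after the start of the gene, 5′ to 3′ on the strand of the gene. Capitals mark CCAAT or its reverse complement ATTGG, and TTTGAA or its reverse complement TTCAAA. The windows lie at chr1:199952544-199952843 on the minus strand for Mki67, at chr10:84473044-84473343 on the minus strand for Top2a and at chr20:19265043-19265342 on the plus strand for Cdk1.
Mki67: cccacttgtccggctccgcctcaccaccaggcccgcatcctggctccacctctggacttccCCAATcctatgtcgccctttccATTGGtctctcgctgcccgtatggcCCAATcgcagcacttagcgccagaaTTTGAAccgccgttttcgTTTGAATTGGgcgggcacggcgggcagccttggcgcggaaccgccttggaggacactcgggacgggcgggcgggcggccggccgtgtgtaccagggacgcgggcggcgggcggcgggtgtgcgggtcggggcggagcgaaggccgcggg
Top2a: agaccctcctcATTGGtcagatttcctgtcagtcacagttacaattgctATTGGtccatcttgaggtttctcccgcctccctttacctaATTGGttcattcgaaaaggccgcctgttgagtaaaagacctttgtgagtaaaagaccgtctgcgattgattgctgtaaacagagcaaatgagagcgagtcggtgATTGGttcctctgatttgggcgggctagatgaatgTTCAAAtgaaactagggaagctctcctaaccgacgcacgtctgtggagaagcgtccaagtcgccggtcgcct
Cdk1: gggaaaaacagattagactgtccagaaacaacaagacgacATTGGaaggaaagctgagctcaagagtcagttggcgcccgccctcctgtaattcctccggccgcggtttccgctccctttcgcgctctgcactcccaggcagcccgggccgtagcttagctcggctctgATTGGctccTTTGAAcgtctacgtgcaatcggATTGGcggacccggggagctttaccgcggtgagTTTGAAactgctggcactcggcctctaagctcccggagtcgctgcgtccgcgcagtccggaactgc
The Mki67 window held 4 CCAAT and 2 TTTGAA matches, of which the CCAAT match nearest to the start shares 1 base with a TTTGAA match. The Top2a window held 4 and 1, and the Cdk1 window 3 and 2. CCAAT on either strand was found in 37.49% of the 33469 rat promoters of the table and in 6 of the 7 member promoters there. TTTGAA was found in 18.35% of all promoters and in 3 of the 7. Both were found in 7.41% of all promoters and in these same 3 member promoters. The table held no window for Ccnd1, Ccnd2 and Cdkn1c. The matches describe the letters of these windows and were not tested for function.

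Ccnd2, the D-type cyclin with a clear signal in these lenses, was lower in lenses with nuclear opacity than in lenses with no cataracts. Its log2 signal was 6.86 at 2 weeks and 6.67 at 4 weeks, 5.78 at 8 weeks, 5.73 at 10 weeks and 5.73 at 12 weeks, 5.06 at 14 weeks and 5.20 at 18 weeks. The youngest pair of arrays was the highest, the oldest pair was the lowest, and the arrays of 8 to 12 weeks lay between them without overlap. The stage means were 6.77 ± 0.14 (SD, n = 2) with no cataracts, 5.75 ± 0.03 (SD, n = 2) with cortical opacity and 5.13 ± 0.10 (SD, n = 2) with nuclear opacity. The single array with posterior subcapsular opacity was at 5.73, close to the cortical mean. It has no spread of its own, and the 2 stages were not compared by a test. In a whole lens, fewer cells of a type and less RNA per cell cannot be told apart.

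Between nuclear opacity and no cataracts, Ccnd2 fell by 1.64 on the log2 scale, or 3.11-fold (SE 0.11, 95% interval of the difference -1.92 to -1.35). It passed the limma test with an adjusted p of 0.0145. Of all tested genes, 4.06% were lower by this test, and Ccnd2 was 1 of the 4 members that were tested. Its signal also fell with age, by 0.114 log2 units per week (SE 0.016, limma adjusted p = 0.0081), a test that 5.03% of all tested genes passed in the same direction. The differences to no cataracts were -1.02 for cortical opacity (SE 0.11, 95% interval -1.30 to -0.74, adjusted p = 0.113) and -1.04 for posterior subcapsular opacity (SE 0.14, 95% interval -1.39 to -0.70, adjusted p = 0.0833). Neither passed the test.

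No gene passed in these 2 comparisons with limma, 0% of those tested, although 828 and 1131 genes had an unadjusted p under 0.05. With a trended and robust prior, limma called 12 genes for cortical and 93 for posterior subcapsular opacity, and Ccnd2 was among them in both, with adjusted p-values of 0.0340 and 0.0407. Nuclear and cortical opacity differed by -0.62 in Ccnd2 (SE 0.11, 95% interval -0.90 to -0.34, adjusted p = 0.245), and 0.0193% of the tested genes passed in that comparison. The arrays of the 2 groups did not overlap in Ccnd2 in any of these pairs. The share of genes with such a gap was not counted for posterior subcapsular opacity. Such a gap in the lower direction was common: it was seen in 31.8% of the tested genes for cortical opacity against no cataracts, in 33.1% for nuclear opacity against no cataracts and in 14.6% for nuclear against cortical opacity.

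The nuclear call of Ccnd2 depended on single arrays. Its adjusted p was 0.161 without the 2-week array, 0.0779 without the 4-week array, 0.0514 without either the 8- or the 10-week array, and 0.113 without either the 14- or the 18-week array, whereas the difference stayed between -1.73 and -1.54. Leaving out the 12-week array cannot change this comparison, because that array alone gave the mean of its stage. The age trend of Ccnd2 lost its call without the 2-week array (-0.105 per week, adjusted p = 0.0684) and kept it without each of the other arrays.

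Mki67, which encodes the nuclear protein Ki-67 of dividing cells, was under 5 on every array. Its log2 signal was 4.60 at 2 weeks and 4.66 at 4 weeks, 3.90 at 8 weeks, 3.72 at 10 weeks, 3.64 at 12 weeks, 3.26 at 14 weeks and 3.47 at 18 weeks. As in Ccnd2, the arrays with no cataracts were the highest, those with nuclear opacity were the lowest, and the groups did not overlap. Among the tested genes 33.1% had such a gap between nuclear opacity and no cataracts. Dim genes such as Mki67 were not counted there. In a fit of all 18166 named genes, without the filter on dim genes, nuclear opacity differed from no cataracts by -1.26 (SE 0.11, 95% interval -1.55 to -0.97), or 2.40-fold, with a limma adjusted p of 0.0994. The differences to no cataracts were -0.82 for cortical opacity (SE 0.11, adjusted p = 0.350) and -0.99 for posterior subcapsular opacity (SE 0.14, adjusted p = 0.158). The slope with age was -0.089 log2 units per week (SE 0.015, adjusted p = 0.0693). None of these passed.

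A floor of 4 in place of 5, which was chosen after seeing the data, brought Mki67 among 8371 tested genes. There it passed for nuclear opacity against no cataracts (adjusted p = 0.0357) and for age (adjusted p = 0.0265), with 1.08% of the genes lower in the first test and 2.57% in the second. Mki67 reached 4 only on the arrays with no cataracts, the group in which it is high, and entered the test through them, so that these p-values are no independent support. Signals this close to the background of an array can understate a fold change, and the call rests on the choice of floor.

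**Figure D1:**
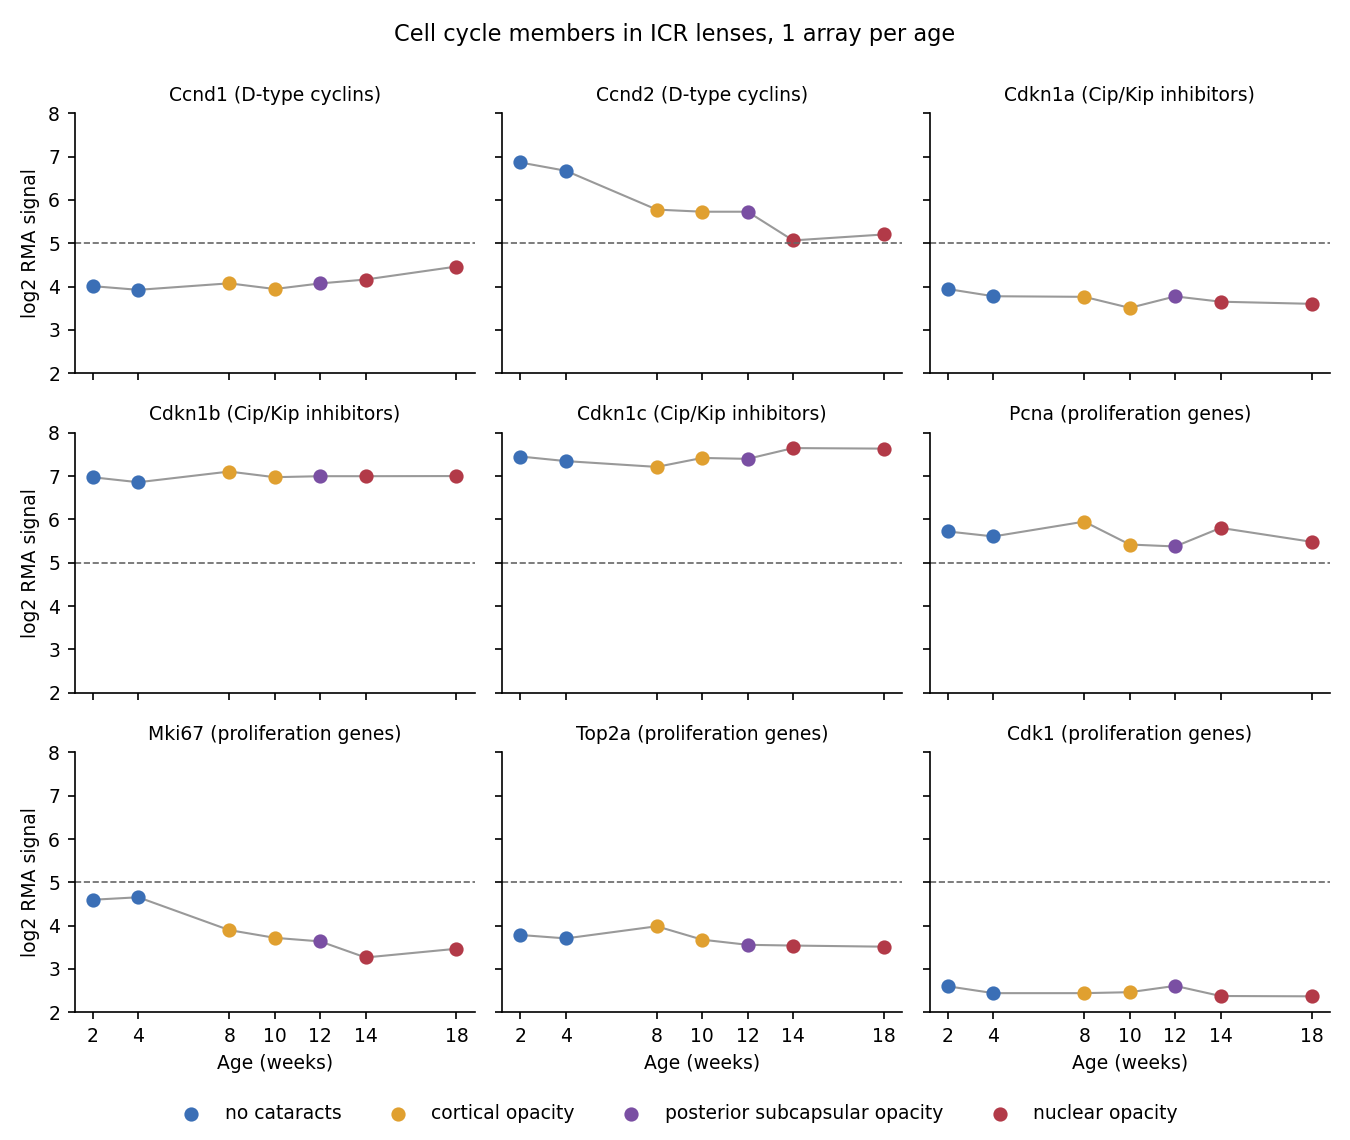
Log2 RMA signal (y axis) of the 9 measured members against age in weeks (x axis), with 1 point per array coloured by stage and a dashed line at 5, the level under which genes were treated as dim. Ccnd2 runs from 6.86 at 2 weeks to 5.06 at 14 weeks and Mki67 from 4.66 at 4 weeks to 3.26 at 14 weeks, while Cdkn1b stays between 6.86 and 7.11.

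Ccnd1, the other D-type cyclin measured, had log2 signals of 4.01, 3.92, 4.07, 3.94, 4.07, 4.16 and 4.46 in order of age. The 18-week array was the highest, and the nuclear arrays lay above those with no cataracts. Such a gap was seen in 21.6% of the tested genes, among which Ccnd1 was not counted. Without the filter the difference was 0.35 (SE 0.13, 95% interval 0.00 to 0.69), with an unadjusted p of 0.0479 and an adjusted p of 0.414. The 2 cyclins thus had differences of opposite sign, of which that of Ccnd2 alone passed a test.

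Among the Cip/Kip inhibitors, which bind and block cyclin-dependent kinases, none passed in any comparison. Cdkn1b (p27Kip1) had log2 signals of 6.97 and 6.86 with no cataracts, 7.11 and 6.98 with cortical opacity, 7.00 with posterior subcapsular opacity and 7.00 and 7.00 with nuclear opacity. The whole range over the 7 arrays was 0.25. Its nuclear difference was 0.08 (SE 0.10, adjusted p = 0.637), and the 95% interval of -0.17 to 0.33 leaves out a change as large as that of Ccnd2. Cdkn1c (p57Kip2) had log2 signals of 7.45 and 7.35 with no cataracts, 7.21 and 7.42 with cortical opacity, 7.40 with posterior subcapsular opacity and 7.65 and 7.64 with nuclear opacity. The nuclear arrays were the highest and did not overlap with any other stage. Such a gap in the higher direction was seen in 21.6% of the tested genes against no cataracts and in 23% against cortical opacity. The differences were 0.24 against no cataracts (SE 0.11, 95% interval -0.04 to 0.52, adjusted p = 0.243) and 0.32 against cortical opacity (SE 0.11, 95% interval 0.05 to 0.60, adjusted p = 0.386).

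Cdkn1a (p21Cip1), a target of p53, was dim, with log2 signals of 3.94 and 3.78 with no cataracts, 3.76 and 3.51 with cortical opacity, 3.77 with posterior subcapsular opacity and 3.65 and 3.60 with nuclear opacity. Both arrays with no cataracts lay above all the others, only narrowly so at 4 weeks. Among the tested genes, 31.8% had such a gap to cortical opacity and 33.1% to nuclear opacity. The nuclear difference was -0.23 without the filter (95% interval -0.55 to 0.08, adjusted p = 0.561). Other p53 target genes were followed beside it. Of 11 measured, 5 were tested and none passed in the nuclear comparison by limma, with a median of 0.11 against -0.05 over all tested genes. The largest differences were 0.36 in Phlda3 and 0.32 in Eda2r, both dim, and none of the 11 had an unadjusted p under 0.05. In the fit without the filter, 2150 of all 18166 named genes had such a p.

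Pcna, the sliding clamp of the replication fork, varied between arrays of the same stage. Its log2 signal was 5.72 and 5.61 with no cataracts, 5.95 and 5.42 with cortical opacity, 5.38 with posterior subcapsular opacity and 5.81 and 5.48 with nuclear opacity. The highest array (8 weeks) and one of the lowest (10 weeks) belonged to the same stage, with an SD of 0.37, and the stages overlapped. The nuclear difference was -0.02 (SE 0.21, 95% interval -0.55 to 0.51, adjusted p = 0.971), and its sign turned with the normalization. Together, Cdkn1b, Cdkn1c and Pcna had adjusted p-values of 0.243 to 1 over 15 tests.

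Top2a, the topoisomerase that untangles DNA before mitosis, had log2 signals of 3.78, 3.70, 3.99, 3.68, 3.56, 3.54 and 3.51 in order of age. The 8-week array was the highest, and the nuclear difference was -0.22 (95% interval -0.54 to 0.11, adjusted p = 0.584). Cdk1, the kinase that starts mitosis, lay between 2.37 at 18 weeks and 2.61 at 12 weeks. Its nuclear difference was -0.15 (95% interval -0.37 to 0.07, adjusted p = 0.577). At these levels a change in a few cells may not be detectable. Over the 20 tests without the filter on Ccnd1, Cdkn1a, Top2a and Cdk1, adjusted p-values ran from 0.288 to 1.

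**Figure D2:**
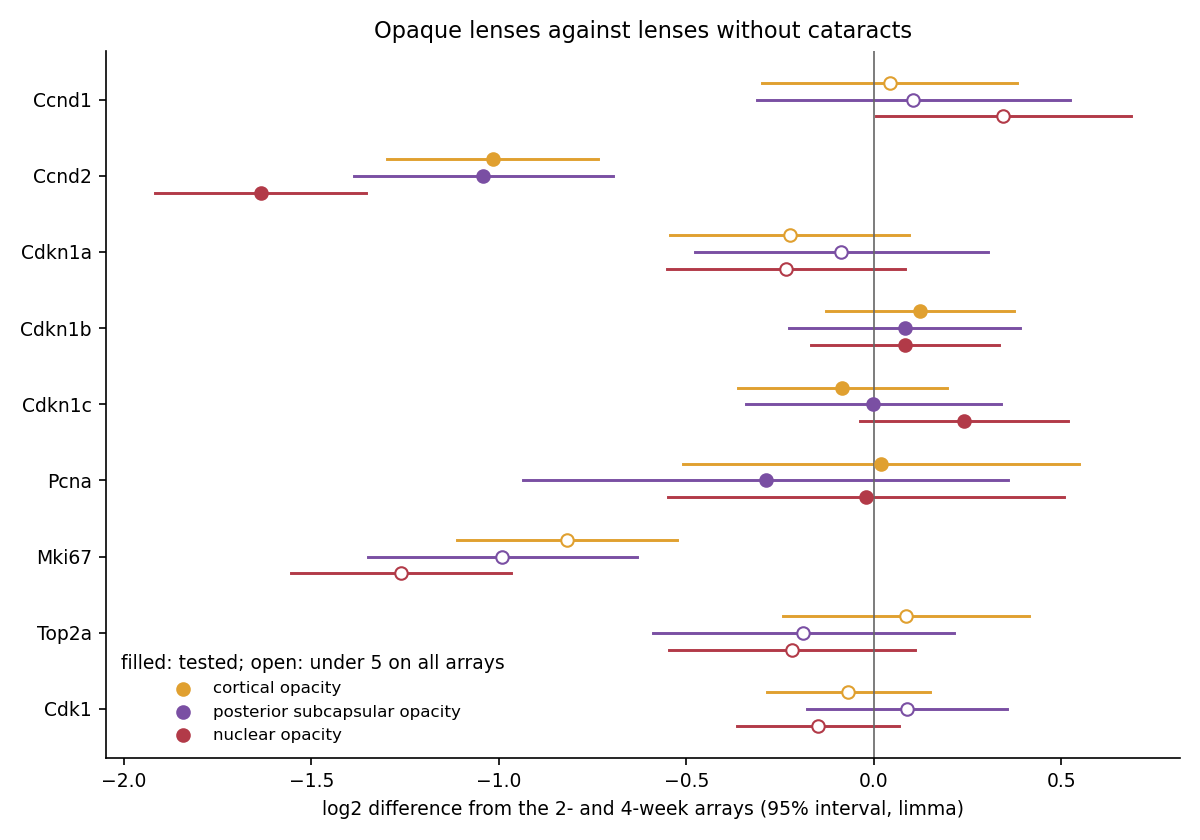
Difference in log2 signal (x axis) of lenses with cortical, posterior subcapsular and nuclear opacity from lenses with no cataracts for each of the 9 measured members (y axis), with 95% intervals from limma. Filled points are members tested in the main analysis and open points are members under 5 on all arrays, fitted without the filter; the intervals of Ccnd2 and Mki67 lie wholly below 0 in all 3 stages, and Ccnd2 in nuclear opacity is at -1.64.

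The differences of Ccnd2 and Mki67 fell into 2 intervals of age. From 4 to 8 weeks, when the labels change from no cataracts to cortical opacity, Ccnd2 differed by -0.90 and Mki67 by -0.76. In this interval 30 of the 5168 tested genes (0.580%) were lower by as much as Ccnd2, and 69 (1.34%) by as much as Mki67. From 12 to 14 weeks, when the labels change to nuclear opacity, Ccnd2 differed by -0.66 and Mki67 by -0.37, which 62 (1.20%) and 288 (5.57%) of the tested genes matched. Between 8 and 12 weeks the steps of Ccnd2 were -0.05 and 0, and those of Mki67 -0.18 and -0.08. The step of 0 is an exact tie, as the processed Ccnd2 values at 10 and 12 weeks were identical. From 14 to 18 weeks both were slightly higher, by 0.14 and 0.20. These steps are differences of single arrays and have no test.

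**Figure D3:**
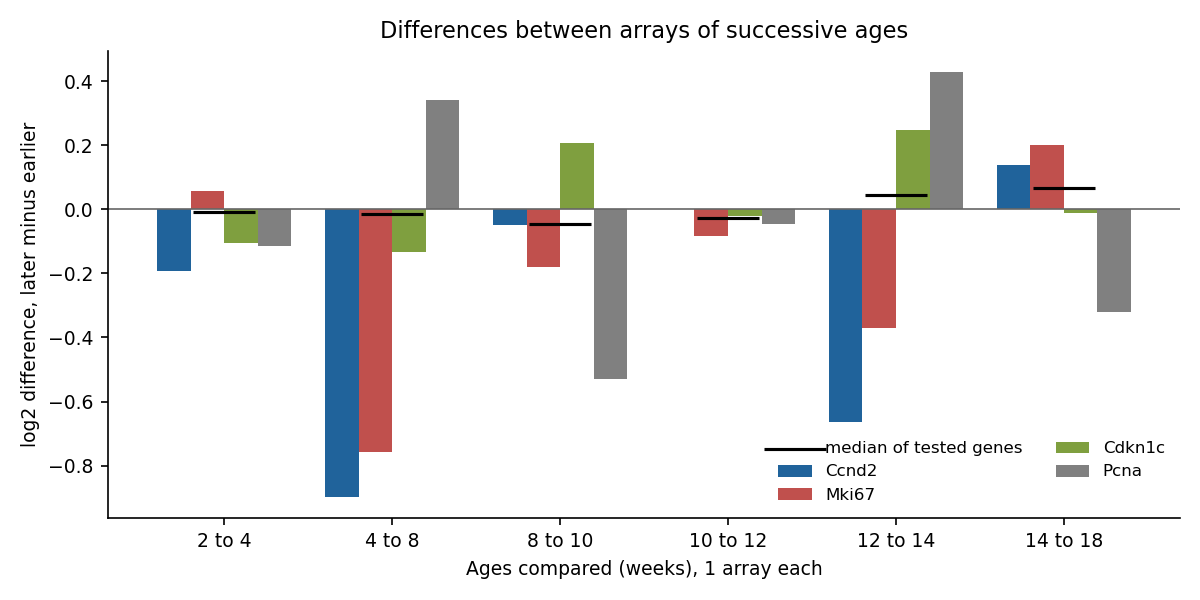
Difference in log2 signal (y axis) between arrays of successive ages (x axis, weeks) for Ccnd2, Mki67, Cdkn1c and Pcna, with black lines at the median of the tested genes. Ccnd2 and Mki67 have their largest negative steps from 4 to 8 weeks (-0.90 and -0.76) and from 12 to 14 weeks (-0.66 and -0.37), while Pcna moves up and down.

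Other genes of G1 control, which lie upstream and downstream of the D-type cyclins, were mostly dim. Of 25 listed genes 23 were measured and 5 tested, and none passed limma for nuclear opacity against no cataracts. Without the filter, 3 of the 23 had an unadjusted p under 0.05, 2 of them lower and 1 higher. In the same fit 2150 of all 18166 named genes had such a p. The median difference of the 5 was -0.12 against -0.05 over all tested genes. Cdk4, the kinase partner of the D-type cyclins, had log2 signals of 7.97, 7.59, 7.62, 7.41, 7.31, 7.27 and 7.23 from 2 to 18 weeks. Its arrays with nuclear opacity were the lowest. Such a gap was seen in 33.1% of the tested genes against no cataracts and in 14.6% against cortical opacity. The nuclear difference was -0.53 (adjusted p = 0.117). The age slope was -0.043 per week (limma adjusted p = 0.0287), a test that 5.03% of all tested genes passed in the same direction. That slope passed in 2 of the 7 fits that each left out 1 array, those without the 10- or the 18-week array, and its adjusted p was at most 0.156 in the others. Cks1b, a small Cdk-binding protein, E2f5 and Cdk2 were dim and differed by 0.50, -0.49 and -0.44 without passing. The pocket proteins Rbl2 and Rb1 differed by -0.42 (adjusted p = 0.0642) and 0.31 (adjusted p = 0.155).

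Of 39 DNA replication genes 36 were measured and 4 tested, and 1 passed, for nuclear opacity against no cataracts and for age. Of all tested genes, 4.06% and 5.03% were lower by these limma tests. Pclaf, a protein that binds Pcna, had log2 signals of 5.36, 5.43, 5.41, 4.97, 4.32, 4.45 and 4.27 from 2 to 18 weeks. The 3 arrays up to 8 weeks were alike and the 3 from 12 weeks on were lower. Pclaf fell by 1.04 in nuclear opacity (SE 0.17, limma adjusted p = 0.0353) and with age (-0.085 per week, adjusted p = 0.0206). Pclaf reached 5 only on the 2-, 4- and 8-week arrays, so that it entered the test through the arrays where it is high. The nuclear call stood only in the fit without the 12-week array, which cannot change this comparison. The other fits have fewer degrees of freedom for every gene, so a lost call cannot show that Pclaf rests on 1 array. Over the 7 fits that left out an array, the difference ran from -1.13 to -0.94. The age call stood in 3 of 7, without the 8-, 10- or 12-week array, with an adjusted p of up to 0.0810. Over the 36 measured genes the median difference was -0.05, with 21 genes below 0 and 15 above. Tyms, which makes thymidylate, reached 5 on the 2-week array alone and differed by -0.46 (adjusted p = 0.381). Rpa3, a subunit of the single-strand binding protein, was dim and differed by 1.19 without passing (adjusted p = 0.438).

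The genes of mitosis gave no tested member at all. Of 38 listed genes 35 were measured, and their log2 signals ran from 1.41 to 4.83. Without the filter, 22 were below 0 and 13 above in nuclear opacity against no cataracts, with a median of -0.08. Of the 35, 4 had an unadjusted p under 0.05, all of them lower, and none passed after adjustment by limma. In the same fit 2150 of all 18166 named genes had an unadjusted p under 0.05, in either direction. The spindle protein Tpx2 differed by -0.70 (adjusted p = 0.431) and the kinetochore protein Ndc80 by -0.58 (adjusted p = 0.330). Mki67 differed by more than each of the 35 mitosis genes, whose lowest value was that of Tpx2.

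**Figure D4:**
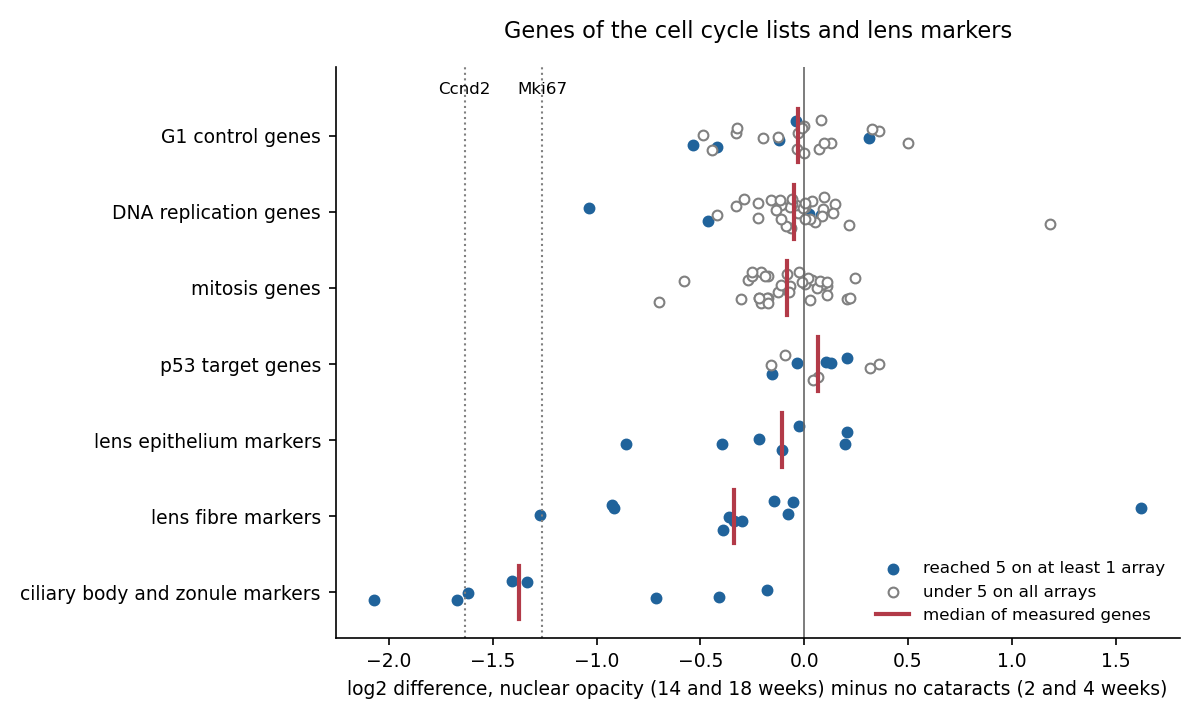
Difference in log2 signal between nuclear opacity (14 and 18 weeks) and no cataracts (2 and 4 weeks) on the x axis for each measured gene of the cell cycle and lens lists on the y axis, with blue points for genes that reached 5, open points for dim genes and a red line at the median of each list. Dotted lines mark Ccnd2 at -1.64 and Mki67 at -1.26; the mitosis genes lie around a median of -0.08 and the ciliary body and zonule markers around -1.37.

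The cells that divide in the lens are epithelial, so the epithelium markers were set beside the members. All 7 reached 5 and none passed limma in nuclear opacity against no cataracts, with a median of -0.10 against -0.05 over all tested genes. An unadjusted p under 0.05 was found in 1 of the 7 and in 1298 of all 5168 tested genes. That 1 marker was Mab21l1, which differed by -0.40 (adjusted p = 0.152). Foxe3, a transcription factor of the epithelium, lay between 6.32 and 6.83 on all arrays, with a nuclear difference of -0.22 (adjusted p = 0.360). Gja1, a connexin of the epithelium, was 8.13 at 2 weeks and 6.42 to 6.96 on the other arrays, with a nuclear difference of -0.86 (adjusted p = 0.230). Of the 11 measured fibre markers 10 were lower than 0 in this comparison, with a median of -0.34 against -0.05 over all tested genes. By limma 4.06% of all tested genes were lower, and 2 of these markers passed. These were the fibre transcription factors Maf (-0.93, limma adjusted p = 0.0264) and Hsf4 (-0.92, adjusted p = 0.0315). Neither call stood in the fits that left out an array, except in the one without the 12-week array, which cannot change this comparison. The other fits have fewer degrees of freedom for every gene, so these lost calls cannot show reliance on 1 array. As arrays were left out, Maf ran from -1.07 to -0.78 and Hsf4 from -1.08 to -0.75. The largest nuclear differences of the dim lists, fitted without the filter, were -0.56 in Csf1r and -0.29 in Lyz2 for immune cells, -0.60 in Cdh5 and -0.54 in Tek for endothelium, and -0.69 in Pde6b and -0.51 in Gnat1 for photoreceptors. The single blood cell marker, Slc4a1, differed by -0.24. Of these, Csf1r and Pde6b had an unadjusted p under 0.05, and neither passed limma after adjustment (adjusted p = 0.237 and 0.104). The part of cell composition in the result for Ccnd2 was not tested.

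Markers of tissue attached to the lens were also set beside Ccnd2. All 8 ciliary body and zonule markers were lower in nuclear opacity than with no cataracts, with a median of -1.37. Ltbp2 and Wfdc1 reached 5 on the 2-week array alone, and Col9a1 only on the arrays with no cataracts. These markers entered the test through arrays where they are high. By limma 4.06% of all tested genes were lower, and 1 of the 8 markers, the microfibril protein Mfap2, passed (-1.67, adjusted p = 0.0145). That call stood in 3 of the 7 fits that left out an array, without the 8-, 10- or 12-week array. Fits without an array of the compared stages have fewer degrees of freedom for every gene, so the lost calls cannot show reliance on 1 array. The summed linear signal of the 8 markers was 588 to 1144 with no cataracts, 197 to 381 with cortical opacity, 310 with posterior subcapsular opacity and 313 to 318 with nuclear opacity. Between nuclear and cortical opacity, where Ccnd2 differed by -0.62, Mfap2 differed by -0.68 (adjusted p = 0.189), Mfap4 by -0.28 and Col9a1 by -0.10, and the other 5 markers were between 0.30 and 0.82 higher, none of them passing. The summed linear signal of the 6 measured pigment cell markers was 48.8 and 299 with no cataracts, the higher value at 2 weeks, and 32.4 to 41.8 in the opaque lenses. Of these, Tyrp1 and Dct reached 5, on the 2-week array alone, and so entered the test through an array where they are high. Their differences of -2.73 and -1.85 did not pass. No marker of the 2 lists was at 0. Without the 2-week array, Ccnd2 differed by -1.54 between nuclear opacity and no cataracts. The part of adherent tissue in this difference was not tested.

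The tested genes whose 7 values ran most like those of Ccnd2 were Pnkd (Pearson r = 0.993), Tmem91 (r = 0.992) and Tmod2 (r = 0.991), over 7 arrays. Pnkd had log2 signals of 8.43, 8.26, 7.03, 6.74, 6.78, 6.07 and 6.30 from 2 to 18 weeks, also with its largest drops after 4 and after 12 weeks. Among the members, Mki67 was nearest to Ccnd2 (r = 0.982), followed by Cdkn1a (r = 0.724), while Pcna was at r = 0.076 and Cdkn1c at r = -0.52. The genes nearest to Mki67, chosen after its values were seen, were Sptb (r = 0.997), Atg9a (r = 0.995) and Spns2 (r = 0.994). These correlations describe arrays that share age, stage and strain, and carry no test.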

How the data were processed

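Whole lenses of ICR rats were measured on 7 arrays, 1 per age. The authors normalized the arrays by RMA in R, and the deposited values are log2 signals of transcript clusters, used as deposited. The version of RMA and the genome build of the probes are not given in the sources used here.

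Of 36685 clusters, 18511 carried 1 gene symbol, 575 several and 17599 none in the table of the array, and the first were used. Symbols were updated by Entrez identifier with RefSeq GRCr8 for 18394 clusters and kept for 117. Where a gene had more than 1 cluster, that of the highest mean stood for it. Genes under 5 on all arrays (12998) were left out of the tests.

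Stages were compared with limma 3.58.1 in R 4.3.3 in a joint fit of the 7 arrays that gave each stage its own mean (3 residual degrees of freedom, 5.37 after moderation), and age in a linear fit (5 and 7.9). P-values were adjusted after Benjamini and Hochberg over the 5168 tested genes, with a threshold of 0.05. The fit was tested on simulated data. Dim members were fitted among all named genes. Intervals are 95% intervals of the fit. The filter, scaling, choice of cluster, prior, form of age and arrays in the fit were varied. Figures were drawn with matplotlib 3.10.9 in Python 3.11.15.

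The members and lists were chosen with earlier results of these data known. All members were named. Of each other list, the genes that passed were named, or, where none passed, the 2 to 4 with the largest differences. Foxe3, Rbl2, Rb1, Tyms and Rpa3 were added after their values were seen. For tested members with a range of at least 1, the 3 genes with the highest correlation were named.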

Additional observations from a re-analysis of the deposited data

How the results depend on the processing

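The count of members that passed, 1 of 4 for nuclear opacity against no cataracts and for age and 0 for the other comparisons, was recomputed under each alternative. For nuclear opacity it was 0 with no filter on dim genes (Ccnd2 adjusted p = 0.0981), 0 with only the arrays of the compared conditions (0.0514) and 2 with the floor of 4 that was added after seeing the data. For age it was 2 with the floor of 4. For cortical and for posterior subcapsular opacity it was 1 with a floor of 6 (Ccnd2 adjusted p = 0.0448 and 0.0487) and 1 with a trended and robust prior. Leaving out each array in turn gave 0 to 1 for nuclear opacity, 0 to 1 for age and 0 for the others. The differences of Ccnd2 kept their sign in all alternatives. The nuclear difference of Pcna reversed to 0.052 with quantile normalization, to 0.037 without the 2-week array and to 0.14 without the 18-week array, and ran from -0.18 to 0.14 as arrays were left out. Quantile normalization moved the median of the tested genes for posterior subcapsular opacity from -0.13 to -0.0039, and Ccnd2 there from -1.04 to -0.90.

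Over all tested genes the nuclear comparison called 315 genes and age 449, and these counts ran from 0 to 480 and from 74 to 620 over the alternatives. Nuclear calls were 0 with no filter (2150 genes had an unadjusted p under 0.05), 23 with only the compared arrays, 406 with a floor of 6, 143 with a floor of 4, 430 with quantile normalization and 480 with the trended prior. They were 0 without the 2-, 4-, 14- or 18-week array and 23 without the 8- or the 10-week array. Age calls were 112 with no filter, 369 with a floor of 4, 446 with a floor of 6, 590 with quantile normalization, 620 with log2 of age and 515 with the trended prior. They ran from 74 without the 2-week array to 571 without the 18-week array. Quantile normalization moved the share of lower calls, to 240 lower and 190 higher for nuclear opacity, from 210 and 105, and to 281 lower and 309 higher for age, from 260 and 189. Dim members were not refitted with arrays left out. No paired analysis was possible because each array was of a different age and the labels pair no arrays between stages. With 1 or 2 arrays per stage, and 5 members under 5, smaller changes of the dim members may have been missed.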
